A study of Mus musculus with 2 samples.

Results

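The regions described here are the Foxp4 ChIP-seq peaks whose midpoint lay within 1 kb of the nearest gene start site. They were chosen by the distance to the start site that the deposited peak list gives, with no use of the strength of the peaks. The rule found 364 of 3317 peaks, and 357 genes were named as nearest to them. The other 2953 peaks, 183 of them between 1 and 3 kb from a start site, served as the comparison.

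The study looked for Foxp4 binding sites early in the differentiation of beige fat cells, the heat-producing cells that appear inside white fat. Stromal vascular fraction (SVF) cells, the mixed progenitors, fibroblasts, blood vessel and immune cells that remain when the mature fat cells are removed, came from the inguinal white fat of C57BL/6 mice. After 3 days of growth in 20% serum they were switched to 10% serum for 48 h with an adipogenic cocktail. It contained troglitazone (5 µM), the thyroid hormone T3 (50 nM), dexamethasone (1 µM), isobutylmethylxanthine (0.5 mM) and insulin (5 µg/ml). The Foxp4 ChIP library and the input DNA library both came from such treated cells, there was 1 of each, and no untreated or Foxp4-deficient cells were among the samples used here. With 1 ChIP library there is no replicate error, and regions or genes of 1 library are not replicates, so no differences were tested. The exact 95% binomial intervals of shares and order-statistic intervals of medians given below cover counting error only. In such a mixture, more cells with a bound site and stronger binding per cell cannot be told apart, and peaks give no expression level with which to check the cell type.

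Foxp4 belongs, with Foxp1, Foxp2 and Foxp3, to the FOXP branch of the forkhead transcription factors. These proteins bind DNA as dimers through a winged helix domain, and the sequence bound by forkhead proteins in general contains a TGTTT core, best known in the extended form TGTTTAC, which reads GTAAACA on the other strand. FOXP proteins often act as repressors, through corepressors and histone deacetylases, and can also activate. A start site is where transcription of a gene begins. The DNA just before it, the promoter, carries the sites at which general and gene-specific factors meet, and in mammals most promoters of broadly used genes are rich in the CpG dinucleotide.

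Sequences of promoters were taken from RefSeq (GRCm38.p6, the assembly that mm10 names), which gave 32851 windows from 250 bases before to 50 bases after a start site, at 27025 genes. For 237 of the 364 peaks the table held a window whose start site lay within 100 bp of the one the peak was assigned to, in all 236 distinct bound windows. At 170 peaks some bases of the peak itself fell inside the table (37330 bases, a median of 243.5 per peak). The remaining 194 peaks could not be read and are not part of the sequence results. The sites below are the occurrences of the extended forkhead sequence inside peaks that carry the main sequence result. Each is shown with 10 bases on either side, written so that the motif reads GTAAACA, which stands in capitals, with mm10 positions and the strand read. The first 4 are those with the highest peak scores. The others were chosen after their values were seen.
2010109A12Rik, chr5:93206506-93206532, plus strand: gcgcgtgtctGTAAACAacgccagtgt
Rsrp1, chr4:134923385-134923411, plus strand: aaaccctgaaGTAAACAaatcctcaaa
Rmnd5a, chr6:71440754-71440780, plus strand: tacgcggccgGTAAACAagagggtgga
Btg1, chr10:96616787-96616813, minus strand: taatctgcttGTAAACAaataaacccc
Rxrb, chr17:34032281-34032307, plus strand: ccccttgtttGTAAACAcgcgccctcg
Bbc3, chr7:16310084-16310110, minus strand: cccattgtttGTAAACAaacccgccag
1700125G22Rik, chr3:27154095-27154121, minus strand: tgtttacggaGTAAACAagcggtaacc
Junb, chr8:84978867-84978893, plus strand: gcgtgtccttGTAAACAgcggccacga
Hdac7, chr15:97831862-97831888, minus strand: cctggcttgtGTAAACAtggatgcacg
Elovl6, chr3:129532253-129532279, plus strand: ccaccttcttGTAAACAaaactatccc

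The extended forkhead sequence, TGTTTAC on one strand and GTAAACA on the other, was the word by which promoter peaks differed most from promoters at large. At least 1 copy lay inside 35 of the 170 readable peaks (20.6%, 95% interval 14.8 to 27.5), whereas 3.65% (3.45 to 3.86) of all promoter windows held it. The readable part of a peak was shorter than the 300 bases of a window, which lowers the share in peaks and not the share in windows. Over windows of equal length the figures were 35 of 236 bound windows (14.8%, 10.6 to 20.0), 2.79% (2.11 to 3.61) of the 2009 windows of genes nearest only to peaks beyond 1 kb, and the same 3.65% of all windows. The scan covered both strands. A match is a description of the letters and not proof of a binding site, and a window without the letters may hold other forms.

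The sites lay inside the peaks and not merely in the same promoters. The 36 sites inside peaks amounted to 9.64 per 10 kb of sequence. In the bases of the bound windows that lay outside the peaks, 4 sites were found in 37570 bases, or 1.06 per 10 kb, close to the 1.25 per 10 kb of all promoters (1235 sites). Inside the peaks, 15 of the 36 sites (41.7%) were within 50 bp of the peak midpoint, where 25.2% of the bases read were located. Within 100 bp were 25 sites (69.4%) and 49.0% of the bases. The median site was 58 bp from the midpoint and the median base 103 bp. At Bbc3, which encodes the cell death protein Puma, the site lay 3 bp from the midpoint, and at Junb, an AP-1 subunit gene, it was likewise 3 bp away. At Hdac7, a class IIa histone deacetylase gene, it was 207 bp away.

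Among all 8192 words of 7 letters, counting a word and its reverse complement as 1, GTAAACA had the largest difference between its share in peaks and its share in all promoters, and the ratio of the shares was 5.64. Next in order was CCGGAAG, the core bound by ETS factors, with 17.6% of peaks and 8.86% of promoters. Among the 32896 words of 8 letters the first was GTAAACAA, found in 10.6% of peaks (6.40 to 16.2) and 1.23% of promoters, a ratio of 8.63. This ranking of words was added after the motif shares had been seen. The letter after GTAAACA was A in 18 of the 34 sites that could be shown with their flanks (52.9%), against 33.5% of 1228 sites in all promoters. The letter before it was C in 0 of 34, and in 6.84% of the sites in all promoters, a difference too small to judge with 34 sites. At 1700125G22Rik, a non-coding RNA gene, a pair of copies faced each other across a short spacer, and the first of them is visible in lower case at the left end of the printed sequence. At Rxrb and Bbc3 the core stood immediately before the full motif on the opposite strand, as tgtttGTAAACA.

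The other forkhead forms differed less or not at all. The bare core TGTTT occurred in 50.6% of the peaks (42.8 to 58.3) and 50.5% of promoters. TATTTAC was found in 2.94% of peaks and 3.04% of promoters, and TGTTTAT in 4.71% and 4.60%. Among CpG-rich windows, where such AT-rich words are scarcer, the core was found in 50.6% of bound windows (42.8 to 58.4) and 31.4% of all (30.6 to 32.3), intervals that lie apart. In the same windows TATTTAC was found in 3.61% (1.34 to 7.70) of bound and 1.28% of all, and TGTTTAT in 3.61% (1.34 to 7.70) and 2.08%. Both of these rested on 6 bound windows, and the intervals of bound and all windows overlapped. The core is contained in TGTTTAC and in TGTTTAT, so these counts overlap.

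The share of peaks with the extended sequence was larger in groups with higher scores, although the intervals of the 3 groups overlapped. The authors' score is a whole number given for each peak as its strength, whose definition the sources used here do not state. With the readable peaks in 3 groups of 56 or 57, in the highest (scores 89 to 1081) 17 of 57 held it (29.8%, 18.4 to 43.4), in the middle group (44 to 88) 12 of 57 (21.1%, 11.4 to 33.9) and in the lowest (13 to 43) 6 of 56 (10.7%, 4.04 to 21.9). The median score was 83 (55 to 122) for the 35 peaks with the sequence and 49 (45 to 62) for the 135 without it in the bases read. These 2 intervals overlap between 55 and 62. Widths were alike, with medians of 420 bp (345 to 454) and 414 bp (386 to 460).

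Several of the highest promoter peaks nevertheless held no copy in the bases that could be read. The 6 highest-scoring peaks that overlap the matched promoter window of their own gene were those of B230354K17Rik, Arhgap11a, Gas1, Gm11992, Tspan4 and Prcc, and none of them had TGTTTAC in the bases read. The peak of 2010109A12Rik, whose score of 834 lies between the first 2 of these, did have it, in bases that the table holds in another window. The first 3 are printed here, followed by the promoters of Rsrp1 and Rmnd5a, which did. Each line gives 120 bases upstream of the start site in the direction of the gene, and capitals mark TGTTTAC or GTAAACA, the CCAAT box (CCAAT or ATTGG) and the GC box (GGGCGG or CCGCCC).
B230354K17Rik, chr17:45433711-45433830, plus strand: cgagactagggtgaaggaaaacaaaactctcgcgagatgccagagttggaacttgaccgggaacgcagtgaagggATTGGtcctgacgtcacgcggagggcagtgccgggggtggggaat
Arhgap11a, chr2:113848792-113848911, minus strand: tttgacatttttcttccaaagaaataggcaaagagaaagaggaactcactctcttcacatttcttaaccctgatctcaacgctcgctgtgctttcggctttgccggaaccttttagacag
Gas1, chr13:60177536-60177655, minus strand: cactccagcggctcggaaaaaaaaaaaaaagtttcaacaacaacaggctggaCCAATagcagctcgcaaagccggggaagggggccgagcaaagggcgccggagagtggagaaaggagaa
Rsrp1, chr4:134923375-134923494, plus strand: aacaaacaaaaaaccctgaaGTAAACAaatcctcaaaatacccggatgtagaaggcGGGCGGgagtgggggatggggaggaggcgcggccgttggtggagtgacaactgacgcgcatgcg
Rmnd5a, chr6:71440681-71440800, minus strand: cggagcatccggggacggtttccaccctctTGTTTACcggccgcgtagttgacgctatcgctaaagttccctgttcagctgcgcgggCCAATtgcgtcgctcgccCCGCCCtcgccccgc
The stretch at B230354K17Rik lies in the 120 bases next to the start site and has 1 CCAAT box and 9 CpG dinucleotides. The stretch at Gas1 has 1 CCAAT box and 7 CpG and includes a run of A. The stretch at Rmnd5a has 1 copy of the forkhead sequence, 1 CCAAT box, 1 GC box and 16 CpG.

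Bound promoters were of the CpG-rich kind more often than promoters in general. Their median GC content was 60.2% (58.7 to 61.3), against 57.7% for genes nearest only to peaks beyond 1 kb and 52.7% for all windows. The ratio of observed to expected CpG had a median of 0.797 (0.729 to 0.824), against 0.599 and 0.384. Taking a ratio over 0.6 as CpG-rich, 166 of 236 bound windows qualified (70.3%, 64.1 to 76.1), against 49.7% (47.5 to 51.9) of the windows of genes near distal peaks and 35.8% of all windows. The table holds windows of non-coding and rarely expressed genes as well, and which genes are expressed in these cells was not measured here.

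Among CpG-rich windows the forkhead sequence kept its difference between bound and all windows, while several other motifs differed less there. Its own share was lower in all CpG-rich windows, 2.56%, than in all windows, 3.65%. Among CpG-rich windows alone, a split added after the data were seen, TGTTTAC was found in 27 of 166 bound windows (16.3%, 11.0 to 22.8) and in 2.56% (2.28 to 2.86) of all 11756. The ETS core was found in 19.5% of bound windows (14.6 to 25.1) and 8.86% of all windows, but among CpG-rich windows in 25.3% (18.9 to 32.6) and 18.7%. The GC box, bound by Sp1 and related factors, was found in 57.6% of bound and 35.7% of all windows, and among CpG-rich windows in 69.3% (61.7 to 76.2) and 72.3%. The TATA box, TATAAA, was rarer in bound windows (6.78% against 13.6%), and among CpG-rich windows it was found in 4.82% (2.10 to 9.27) and 5.99%. AGAACA, one arm of the site for the glucocorticoid receptor that dexamethasone activates, was found in 11.4% of bound windows and 19.0% of all, and in 6.02% (2.93 to 10.8) and 9.50% of the CpG-rich ones.

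For the remaining motifs the shares inside the peaks, read over fewer bases than a window holds, are set beside those of all promoter windows. The CCAAT box was in 35.9% of peaks and 37.4% of all windows, the E-box CACGTG in 7.06% and 7.15%, the AP-1 site TGANTCA in 5.88% and 7.81%, the YY1 site AAGATGGC in 2.35% and 2.75%, and the NRF1 motif in 2.94% and 4.60%. The CRE, TGACGTCA, was in 7 peaks (4.12%, 1.67 to 8.30) and 1.79% of windows, and its shorter form TGACGT in 11.8% and 7.51%. The C/EBP palindrome TTGCGCAA was in 2 peaks (1.18%, 0.143 to 4.19) and 0.183% of windows. The TTG repeat, searched as TTGTTGTTG, was in 5 peaks (2.94%, 0.962 to 6.73) and 0.725% of windows, TTTGTTTG in 5.29% and 2.61%, and TGTGTGTG in 5.29% and 4.09%. The SRF, NF-1 and CTCF core motifs were in 0 of 170 peaks, which allows up to 2.15%, and in at most 0.0639% of windows. Over windows of equal length, 41.95% of bound windows held the CCAAT box, 10.6% the E-box, 7.63% the NRF1 motif and 12.7% (8.74 to 17.65) TGACGT. Of these, only TGACGT had an interval apart from that of all windows (7.23 to 7.80). Among CpG-rich windows it was in 14.5% (9.49 to 20.7) of bound windows and 13.2% of all.

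**Figure D1:**
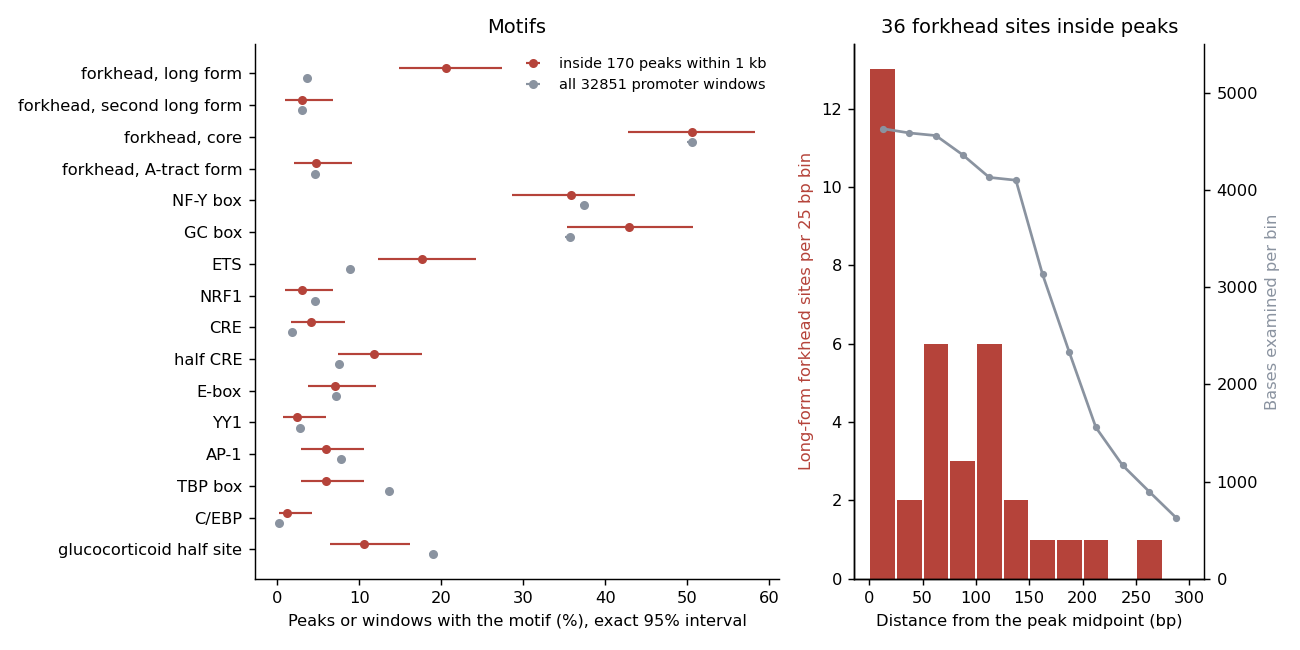
Left, the share in percent of the 170 readable promoter peaks (red) and of all 32851 promoter windows (grey) that hold each motif, with exact 95% binomial intervals; the long form is TGTTTAC, the second long form TATTTAC, the A-tract form TGTTTAT, the core TGTTT, the NF-Y box CCAAT and the TBP box TATAAA. Right, the 36 long-form sites by distance from the peak midpoint in bins of 25 bp (red bars, left axis), with the number of bases read at each distance (grey line, right axis): 13 sites lie in the first bin.

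The peaks crowded just upstream of start sites. In steps of 100 bp, the largest number was 55 between 100 and 1 bp before the start site, followed by 51 in the next step upstream and then 33 and 31. On the downstream side the first 2 steps held 27 and 32. At the edges of the 1 kb window the steps held 6 each, and between 1 and 3 kb from the start site they ranged from 0 to 13. Of the 364 peaks, 236 lay upstream (64.8%, 59.7 to 69.7), against 44.8% (43.0 to 46.6) of the more distant peaks and 47.5% (40.1 to 55.0) of those between 1 and 3 kb. The upstream share was 62.7% (55.5 to 69.5) up to 250 bp, 77.6% (67.3 to 86.0) from 251 to 500 bp and 57.0% (45.8 to 67.6) from 501 to 1000 bp. The start site itself was covered by 164 peaks (45.1%). The peaks closest to it were those of Tmem260 (2 bp upstream, score 39), Tmco6 (2 bp downstream, 38), Clec2d (3 bp, 22), Gas1 (4 bp, 731) and Txnl1 (5 bp, 41).

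**Figure D2:**
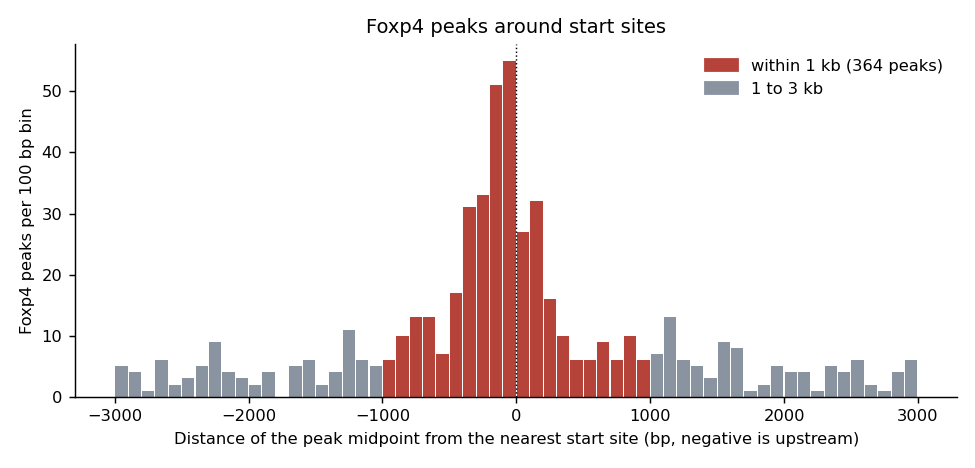
Number of Foxp4 peaks per 100 bp (vertical axis) by the distance of the peak midpoint from the nearest start site in bp (horizontal axis, negative upstream), within 1 kb in red and from 1 to 3 kb in grey. The tallest bar, 55 peaks, is the one directly upstream of the start site, and no bar beyond 1 kb exceeds 13.

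By annotation, 278 of the peaks were promoters, 55 lay in introns, 50 of these in the first intron, 18 in 5' UTRs, 6 in exons, 4 at transcription ends and 3 in non-coding transcripts. Of the 86 that were not annotated as promoters, 9 were marked as CpG islands and 9 as simple repeats. Of these simple repeats, 8 consisted of T runs with single G, and the scores of the 9 were between 45 and 288 with a median of 121. The file does not show repeats for peaks annotated as promoters, so the count of 9 is a lower limit. All 9 lay downstream of the start site, but so did all 86 peaks not annotated as promoters. Their side therefore follows from the annotation and says nothing about repeats. The limit of 1 kb separated peaks of like strength. Among the last inside were those of Hnrnph1 (978 bp, score 75), 5430437J10Rik (978 bp, 53) and Lzic (974 bp, 93). Among the first outside were those of Egr2 (1009 bp, 25), Klf15 (1016 bp, 141) and Fosl2 (1020 bp, 47).

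Larger shares of the peaks at start sites than of the others scored at least 300 or below 30. The highest score was 1081 within 1 kb and 2569 beyond. The median within 1 kb was 55 (50 to 65, quartiles 37 and 108) against 65 (63 to 67, quartiles 41 and 104) for the other peaks. A score of at least 300 was reached by 25 peaks (6.87%, 4.49 to 9.97), against 3.73% (3.07 to 4.47) of the others. A score below 30 was given to 69 (19.0%, 15.1 to 23.4), against 12.3% (11.1 to 13.5). When all 3317 peaks were divided into 5 groups of 663 or 664 by score, the peaks within 1 kb made up 11.9% of the highest group, 8.13% and 8.14% of the next ones, and 13.4% and 13.3% of the lowest ones. They were 1 of the 10, 10 of the 50 (20.0%, 10.0 to 33.7) and 17 of the 100 (17.0%, 10.2 to 25.8) highest peaks. Over all scores they were 364 of 3317 peaks, and on the autosomes 358 of 3277 (10.9%). That share lies inside the intervals of the 10, 50 and 100 highest and of the highest group (9.53 to 14.6). Peaks up to 250 bp downstream had the lowest median score, 42 (38 to 53), those up to 250 bp upstream had 60 (50 to 71), and those 501 to 1000 bp downstream had 76 (58 to 93).

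Widths did not set promoter peaks apart. The median was 393 bp in both sets (381 to 414 within 1 kb, 389 to 399 beyond). Scores went up with width in both sets. In 4 groups by width, the median scores were 45 within 1 kb and 49 beyond in the narrowest, then 51 and 60, then 78.5 and 79.5, and 102 and 96 in the widest. The widest promoter peaks were those of Gmfb (1517 bp, score 38), Gm16364 (1111 bp, 257), Abca6 (995 bp, 210), Mc2r (961 bp, 287) and Deptor (936 bp, 46), so the widest were not the highest.

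**Figure D3:**
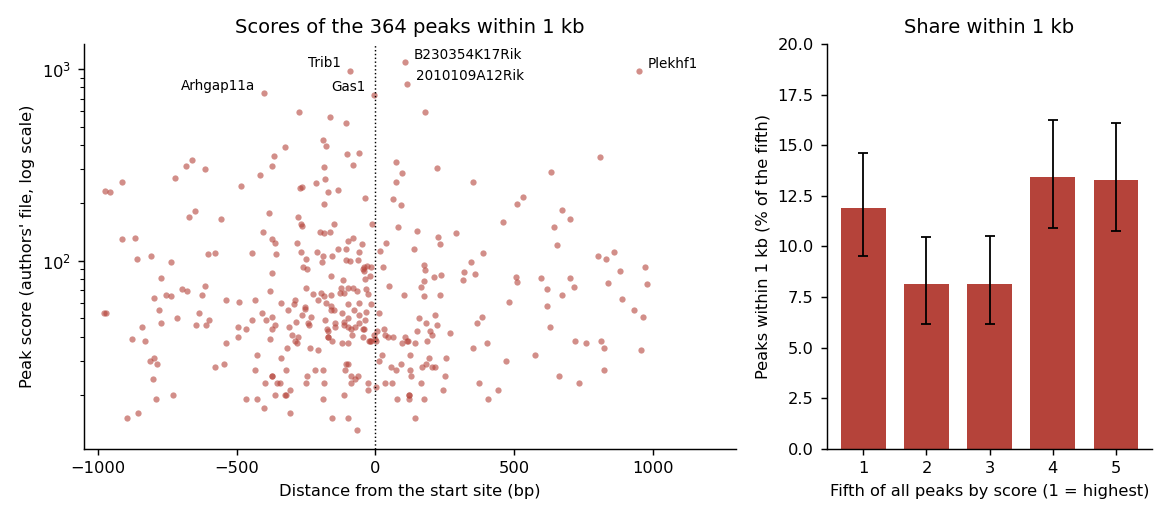
Left, the authors' score (log scale) of each of the 364 peaks by its distance from the start site in bp, with the 6 highest named. Right, the percent of each of 5 equal groups of all 3317 peaks, from the highest score (1) to the lowest (5), that lay within 1 kb of a start site, with exact 95% binomial intervals; groups 1 and 5 hold 11.9% and 13.3%, group 2 holds 8.13%.

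The highest promoter peak, with a score of 1081, covered the start site of B230354K17Rik, a non-coding RNA gene (chr17:45433575-45434299). Its midpoint lay 106 bp downstream of that start site. Close by, on the opposite strand, starts Cdc5l, which encodes a component of the spliceosome. Second came Trib1, whose pseudokinase brings the ubiquitin ligase COP1 to C/EBP alpha, a factor of fat cell differentiation (980, 92 bp upstream, chr15:59648302-59648823). Plekhf1, an endosome and lysosome protein, had a peak of 972 in its intron, 950 bp from the start site (chr7:38226679-38227409). Gas1, a membrane protein that acts in growth arrest and as a Hedgehog coreceptor, had one of 731 on its start site (chr13:60177190-60177889).

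The others of the 15 highest were at 2010109A12Rik (834), Arhgap11a (747), a GTPase-activating protein for RhoA, Gm11992 (599), Tspan4 (593), a tetraspanin, Prcc (558), Dnajc12 (525), a co-chaperone, Becn1 (427), a core autophagy protein, Fam204a (395), Rsrp1 (393), Cyb5d2 (362) and Rmnd5a (359), a subunit of the CTLH ubiquitin ligase. All but Plekhf1 and Tspan4 among these 15 were annotated as promoters. Genes that start head to head within 1000 bp made up 28 of the 236 bound windows (11.9%, 8.03 to 16.7), against 11.4% of all windows, and among CpG-rich windows 15.7% (10.5 to 22.1) against 23.7%. At such pairs, among them Cyb5d2 with Zzef1, Rxrb with Slc39a7 and Mcm7 with Ap4m1, the file names 1 of the genes.

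Most of the genes were protein-coding, and the non-coding RNA genes had a higher median score. Protein-coding genes were nearest to 323 peaks (88.7%, 85.0 to 91.8), against 78.3% (76.7 to 79.7) of the other peaks. Non-coding RNA genes were nearest to 36 (9.89%, 7.02 to 13.4), against 20.3% (18.8 to 21.8). The median score was 53 (47 to 61) for the protein-coding and 82.5 for the non-coding genes, led by B230354K17Rik, Lncenc1 (268), Gm16364 (257) and Gm2109 (257). Beyond 1 kb the medians were 66 and 64. Some of the peaks counted as non-coding within 1 kb are annotated to the promoter of a protein-coding transcript. Among them are those of B230354K17Rik, Gm16998 (214) and 1700125G22Rik (149), so the non-coding class partly holds shared promoters. For the 41 peaks within 1 kb whose gene was of any type other than protein-coding, the median was 76 (59 to 92). That interval overlaps the one of the protein-coding genes. The rRNA class held 4 peaks, all at copies of Rn4.5s, the 4.5S RNA gene, on chromosome 6, with scores of 92, 71, 27 and 20. These copies are nearly identical in sequence, so how reads were shared among them is uncertain. The pseudogene class held 1, Ubb-ps (46).

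A total of 5 genes had more than 1 peak in the window. Besides Rn4.5s they were Dcn, a matrix proteoglycan of fibroblasts, with scores of 124 and 40 at 2 start sites, Glt8d2 (66 and 59), Arhgap24 (73 and 25) and Clec2d (39 and 22). Of the protein-coding genes, 1.51% of the autosomal and 0.621% (0.228 to 1.35) of the X-linked ones had a peak within 1 kb. X had 6 such peaks.

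Gene function was read from words in the gene descriptions of the file, which is coarse. Among the groups of named proteins, chromatin and histone proteins had the largest ratio of shares: 11 of 357 genes (3.08%, 1.55 to 5.45) against 15 of 2105 genes nearest only to other peaks (0.713%, 0.399 to 1.17). Among protein-coding genes alone the shares were 3.45% (1.73 to 6.09) and 0.835% (0.457 to 1.40). They were the histone demethylases Kdm3a (score 108) and Kdm2a (39), the histone H3 lysine 4 methyltransferases Kmt2a (105) and Kmt2d (53), the deacetylase Hdac7 (55), the SWI/SNF ATPases Smarca2 (38) and Smarca4 (29), the Polycomb proteins Pcgf3 (37) and Ezh1 (34), Chrac1 (32) and Hinfp (25), a regulator of histone H4 genes. Apart from Kdm3a and Kmt2a, these scores did not exceed the median of all promoter peaks, which was 55.

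Transcription factors named as such and outside the zinc finger, homeobox and forkhead groups were 3.92% (2.16 to 6.49) of the genes against 1.95% (1.40 to 2.63). The highest were Atf7ip (183), a partner of the H3 lysine 9 methyltransferase Setdb1, Tfap4 (168), Hbp1 (152), a repressor linked to cell cycle exit, and Atf4 (112), the main factor of the integrated stress response. Genes matched by words for mitochondrial proteins were 3.36% (1.75 to 5.80) against 1.52% (1.04 to 2.14), intervals that overlap as those of the transcription factors do. At the top were Cyb5d2, Mrps35 (254), Oxsm (168), an enzyme of mitochondrial fatty acid synthesis, and Cyp2u1 (139). The descriptions of Cyb5d2 and Cyp2u1 name a cytochrome and not mitochondria, so their place in this group rests on a word match alone. This group shares with that of ribosome and translation proteins (2.52% against 1.28%) the mitochondrial ribosomal genes Mrps35, Mrpl32 (84), Mrps23 (67), Mrps2 (44) and Mrps24 (28). Ubiquitin and proteasome proteins, led by Marchf2 (310), Pdzrn3 (181), Rnf122 (83) and Usp9x (60), were 3.08% against 1.66%, with overlapping intervals.

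Receptors and ligands were 5.88% (3.68 to 8.85) against 8.27% (7.12 to 9.53) and kinases and phosphatases 3.64% (1.95 to 6.15) against 5.32% (4.40 to 6.37), also overlapping. The receptors and ligands with the highest scores were Mc2r, the ACTH receptor (287), Rxrb, a retinoid X receptor (213), Wnt5b (139) and Il13ra2 (129), a binding protein for interleukin 13. Among kinases and phosphatases these were Trib1, Sgpp1 (302), Fcsk (155) and the inhibitor gene Pkig (129). Solute carriers and channels (2.80% against 3.37%) were led by Clcn4 (305), Abca6 (210), Slc25a45 (122) and Slc10a6 (111). Zinc finger proteins (1.68% against 2.09%) were led by Zfp36l1 (141), which destabilises mRNAs, Tshz2 (131), Zfp74 (65) and Zc3h13 (55).

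Genes matched by homeobox or forkhead words (1.40% against 0.808%) were Hoxc4 (228), Hoxd3os1 (159), Mkx (45), Foxp2 (38) and Pknox1 (19). Of these, Hoxd3os1 is a non-coding RNA gene on the strand opposite Hoxd3. Among protein-coding genes alone the shares were 1.25% and 1.01%. RNA processing proteins (1.96% against 1.42%) were led by Rbm39 (88), Hnrnph1 (75), Cpsf1 (43) and Auh (40), and small GTPases with their regulators (2.52% against 1.76%) by Arhgap11a, Arhgap42 (164), Iigp1 (121) and Arhgap12 (102). Genes without a functional name, such as RIKEN and predicted genes, were 10.1% (7.16 to 13.7) against 16.3% (14.7 to 17.9). In all, 33.3% (28.5 to 38.5) of the promoter peaks' genes fell into any of 13 groups of named proteins, against 28.8% (26.9 to 30.8), and among protein-coding genes 36.7% (31.4 to 42.2) against 35.4% (33.1 to 37.8). Hexim1 (313, 682 bp upstream) and Hexim2 (156, 267 bp upstream), neighbours on chromosome 11 that encode inhibitors of the elongation factor P-TEFb, both had a peak. They were singled out after their values were seen.

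**Figure D4:**
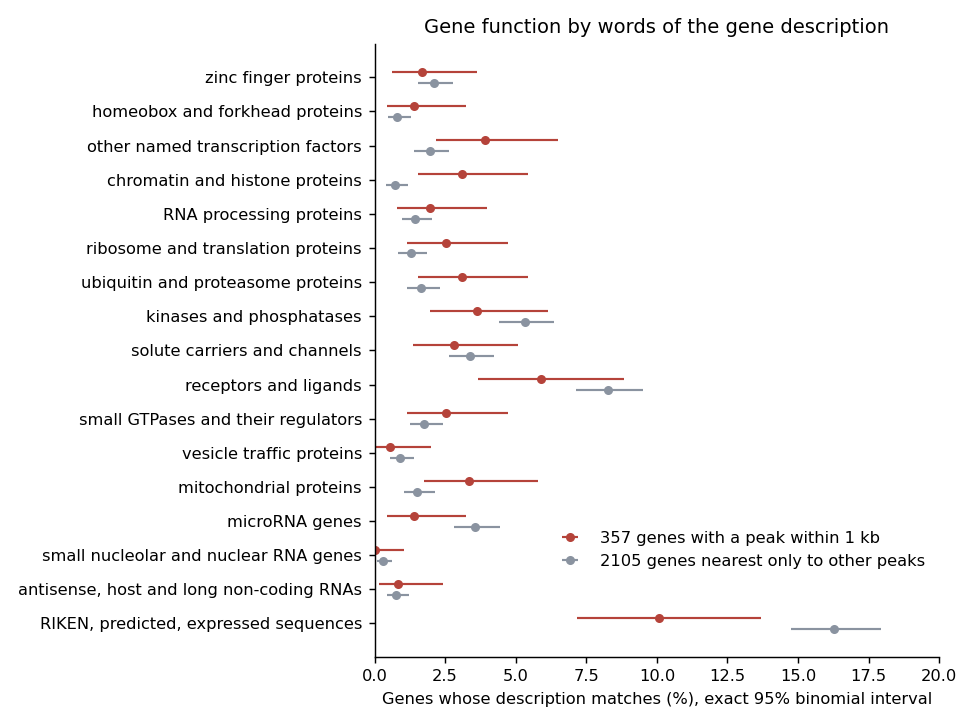
Percent of genes whose description matches each group of words, for the 357 genes with a Foxp4 peak within 1 kb of a start site (red) and the 2105 genes nearest only to other peaks (grey), with exact 95% binomial intervals. The chromatin and histone group, 3.08% against 0.713%, is the one of the named protein groups whose 2 intervals lie apart.

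Pathway lists give the same genes against a fixed number of members. Over all 21900 protein-coding genes of the reference, 319 were named nearest to a peak within 1 kb, or 1.46%, and 1732 to one further away, or 7.91%. Of 654 list genes 43 had a promoter peak (6.58%, 4.80 to 8.75). The lists name well-known regulators, and they were drawn up with results of these data known. The median score of the listed genes' peaks was 46, below that of all promoter peaks.

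Chromatin regulators, the longest list, had the largest number, 9 of 73 (12.3%, 5.80 to 22.1), while 8 of 73 had a peak beyond 1 kb. Shares were larger for progenitor and fibroblast markers (15.4%, 4.36 to 34.9), immediate early genes (13.8%, 3.89 to 31.7) and clock genes (13.0%, 2.78 to 33.6). These intervals overlap that of the chromatin list. To the genes named above the chromatin list adds Nipbl, the cohesin loader (score 48), and lacks Pcgf3, Chrac1 and Hinfp. Of 34 adipogenic transcription factors 4 had a promoter peak: the coactivator Ep300 (64, 799 bp upstream), the Wnt effector Tcf7l2 (52, 60 bp upstream), Klf9 (46, 360 bp upstream) and Nfib (37, 760 bp downstream). In this list 18 of 34 had a peak further away. The promoter count was 2 with a window of 500 bp, 7 with one of 3 kb and 0 with scores of at least 65. Of 26 progenitor and fibroblast markers 4 had one, namely Dcn, Pdgfra (101), Lox (38) and Thy1 (24), the first 2 of them with scores of at least 65. Of 29 immediate early genes 4 had one: Btg1 (314), an antiproliferative gene, Junb (115), and the MAP kinase phosphatases Dusp1 (47) and Dusp4 (32), while 11 had a distal peak. With a window of 3 kb 8 of the 29 had a peak, and with scores of at least 65 only Btg1 and Junb. Btg1 and Junb are among the genes with GTAAACA in the peak shown above.

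RNA splicing factors had 4 promoter peaks in 56 genes (7.14%, 1.98 to 17.3), at Rbm39, Hnrnph1, the kinase Clk1 (51) and Snrpb (37), and 1 gene with a distal peak. The clock list had 3 of 23, at the casein kinase Csnk1d (63), Arntl (27), which encodes BMAL1, and Rorb (21). Wnt signalling had 3 of 30, at Wnt5b, Tcf7l2 and the feedback inhibitor Axin2 (28). Extracellular matrix genes had 3 of 43, at Dcn, Lox and the collagen gene Col5a2 (37), and 20 of 43 had a distal peak, the largest such share after that of the adipogenic factors. TGF-beta and BMP signalling had 2 of 31, at Ski (69) and the activin receptor gene Acvr2b (41), glucocorticoid-induced genes had 2 of 24, at Dusp1 and Klf9, and insulin and IGF signalling 2 of 26, at Igf1r (45) and Akt2 (20). Protein folding had 2 of 39, at Atf4 and Hsp90ab1 (28), and the actin and adhesion list 2 of 39, at Tpm1 (37) and Zyx (23).

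Single genes were found in 4 lists. They were Elovl6, a fatty acid elongase with the site shown above, in lipid storage (50, 1 of 26), Foxp2 among Foxp partners (38, 1 of 20), the replication helicase Mcm7 in the cell cycle (95, 1 of 41) and the mitochondrial DNA polymerase Polg in the respiratory list (40, 1 of 44). None of 26 brown and beige adipocyte genes had a promoter peak, which with this number of genes allows a share of up to 13.2%, and none of 56 cytosolic ribosomal protein genes, up to 6.38%. For both, 1.46% lies inside that range, so the absence is within counting error.

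**Figure D5:**
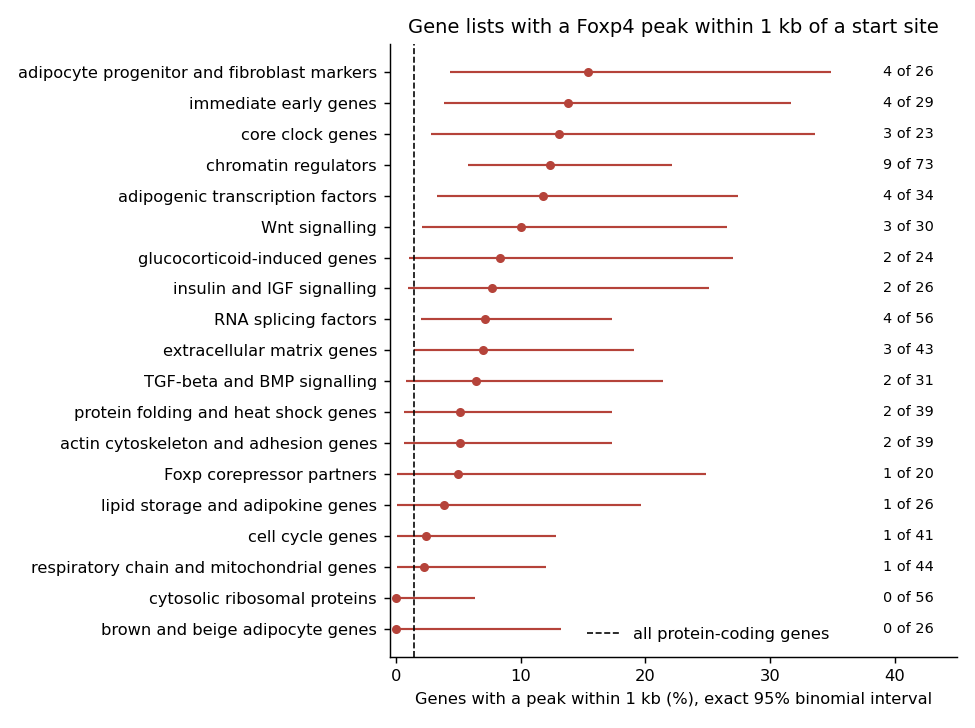
Percent of the genes of each of 19 lists with a Foxp4 peak within 1 kb of a start site, with exact 95% binomial intervals and the counts at the right; the dashed line is the share over all protein-coding genes, 1.46%. The interval of the chromatin regulators, 5.80% to 22.1%, is among those that lie above the line, and those of brown and beige and ribosomal genes start at 0.

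The microRNA genes had 5 promoter peaks. Their start site in the file is the end of the hairpin record and not a mapped start of the long primary transcript, so these are peaks near hairpins. They were Mir199a-1 (score 178, 384 bp upstream, with a gap of 130 bp between peak and hairpin), Mir21a (82, 506 bp downstream, 220 bp), Mir6539 (76), Mir100 (73, 717 bp downstream, 470 bp) and Mir1904 (30, 814 bp upstream, 622 bp). The mature forms from RefSeq, with the seed (bases 2 to 8, which pair with targets) in capitals, share no seed and show which products these loci make.
mmu-miR-199a-5p: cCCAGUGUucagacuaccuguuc
mmu-miR-199a-3p: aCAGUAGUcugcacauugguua
mmu-miR-21a-5p: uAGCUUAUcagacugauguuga
mmu-miR-100-5p: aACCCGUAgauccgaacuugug
mmu-miR-1904: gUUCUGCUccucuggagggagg
MicroRNA genes were 1.40% (0.456 to 3.24) of the genes with a promoter peak and 3.56% (2.81 to 4.45) of the others.

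Genes with a promoter peak often had distal peaks as well. Of the 319 protein-coding ones, 58 (18.2%, 14.1 to 22.9) were also nearest to a peak beyond 1 kb, against 7.76% (7.40 to 8.12) of the other 21581 protein-coding genes. Including other gene types the number was 72 of 357 (20.2%, 16.1 to 24.7), and 26 of these had at least 2 further peaks. At 41 of the 72 the best distal peak scored higher than the promoter peak. Taking the best of several favours the distal side at genes with more than 1 distal peak. Genes with wide surroundings collect more peaks by position alone, and gene spacing was not taken into account.

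Mir21a had the most, 8 further peaks with scores of 19 to 308, and the highest of them lay 2.29 kb downstream. Dhrs3, a retinaldehyde reductase gene with a promoter peak of 28, had 5, up to 174. Klf9 had 4, the highest 139 at 67.8 kb upstream. Il1r1, the interleukin 1 receptor gene, had a promoter peak of 19 and a peak of 583 at 1.11 kb downstream, just outside the window. Pim1, a serine/threonine kinase gene, had 15 at the promoter and 369 at 21.2 kb upstream. Smarca2 had 38 at the promoter and 137 at 25.3 kb upstream. At Plekhf1 and Gas1 the order was reversed, with promoter peaks of 972 and 731 and distal peaks of 45 and 89.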

How the data were processed

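Per the labels, sonicated nuclei were immunoprecipitated with a Foxp4 antibody, and input DNA was sequenced beside them. The submitters' processing notes name mm10, Bowtie2, Picard, SAMtools, MACS2 and deepTools 3.3.0 without roles or settings. Per the file headers, the authors deposited a peak list annotated with HOMER's annotatePeaks. Each peak has a score from the authors' processing, used only to describe and rank peaks of this list. Read depth, fold enrichment and the treatment of multiply aligned reads are not given in the sources used here, and the input library was not analysed here. Both the use of the input and that treatment bear on whether repeats and multicopy genes such as Rn4.5s are listed as peaks.

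One line without a peak was dropped. Genes were matched by number to RefSeq (2459 of 2462 nearest genes, 356 of 357 at promoter peaks), and current symbols replaced old ones at 12 promoter peaks. Motifs (22), word groups (17) and gene lists (19) were counted with Python 3.11.15, pandas 2.3.3 and numpy 2.4.6, and exact binomial and order-statistic 95% intervals came from scipy 1.17.1; the counting was tested on simulated data. The rule for named genes took the 15 highest, the 5 widest and the 5 closest peaks, those at the edges of the window, genes with several peaks, and up to 4 per list, word group and gene type. The members, lists and rules were chosen with earlier results of these data known. Alternatives were other windows, score limits, annotation classes and gene types. The word ranking, the counts inside and outside peaks, the CpG-rich split, the flanking letters and the head-to-head pairs were added after the data were seen. A few values that these rules would name are not reported here.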

Additional observations from a re-analysis of the deposited data

How the results depend on the processing

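With a window of 500 bp instead of 1 kb, 278 peaks remained in the window and none of the 9 main results moved beyond its interval or, for counts, by over 1.5 times. With 3 kb the number was 547 and the upstream share 59.0%. Counting only peaks that cover the start site gave 164, and only those annotated as promoters 278. With scores of at least 30 the median score was 69 (72 for the other peaks). With scores of at least 65, the median of all peaks, the window held 163 peaks with a median score of 115, now above the 102 of the others, a median width of 440 bp, 83.4% protein-coding genes, 28.4% of genes in a group of named proteins, 12 list genes and further peaks at 13.0% of the genes. The order of the median scores thus depends on the weak peaks, and the chromatin group fell to 1.24% and the chromatin list to 2 of 73 under that limit. The share of bound windows with TGTTTAC was 11.0% to 19.1% over these windows and score limits, against 3.65% of all windows. No paired analysis was possible because there was 1 ChIP library and 1 input library. For the same reason no replicate could be left out, and read depth behind each peak is unknown. Sequence was read for the bases of promoter windows only, 170 of 364 peaks.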
